A study of Mus musculus with 12 samples.

Results

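The mRNAs of 10 genes of bone morphogenetic protein (BMP) signalling were measured in mouse embryonic stem cells that carry, lack or regained Dicer. They were the inhibitor-of-differentiation genes Id1, Id2 and Id3, the ligand gene Bmp4, the receptor genes Bmpr1a and Bmpr2, the signal transducers Smad1 and Smad5, and the inhibitory Smad6 and Smad7. They were chosen by symbol: a row belonged to the set if its Ensembl identifier matched 1 of these names. All 10 were found among the 47643 genes counted, and all 10 were among the 14629 that passed the filter on low counts.

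The cells were E14 embryonic stem cells of 129/Ola background, kept in serum and LIF on gelatin, and the knockout, the wild-type control and the complemented lines were all kept in puromycin. Poly(A) RNA was sequenced from 12 libraries, 2 for each of 6 groups: WT, the Dicer knockout KO, and the complemented lines SOM, 41584, 41585 and 41589. Per the labels, 41584 is similar to WT, 41585 processes neither miRNAs nor siRNAs, and 41589 does not process siRNAs. The label of SOM does not state what it processes. The labels leave unstated whether libraries of 1 group are separate cultures, whether a line is 1 clone, or which part of Dicer1 was removed or put back. The p-values below therefore measure only the spread between these libraries, which may be technical. Dicer is the RNase that cuts the precursors of miRNAs and siRNAs.

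BMP ligands bind a pair of type I and type II receptors, which phosphorylate SMAD1 and SMAD5. These enter the nucleus with SMAD4 and switch on target genes, among them the Id genes and the feedback inhibitors Smad6 and Smad7. Id proteins pair with E proteins such as TCF3 and TCF4 and keep them, and their partners, from binding DNA. In mouse embryonic stem cells grown in serum and LIF, BMP acting through Id genes is known as a signal that holds back neural differentiation. Abundant miRNAs of these cells, miR-294 and its relatives, share a seed, the bases by which a miRNA pairs with an mRNA.

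The sequences below show mature miRNAs and places where genes that differed hold the letters complementary to their seeds. These poly(A) libraries do not measure miRNA levels. The first pair are mature miRNAs from RefSeq (GRCm38.p6), with the seed, bases 2 to 8, in capitals. The mature sequence of miR-294 lies at chr7:3220691-3220712 (plus strand) and that of miR-20a, of the related miR-17 family, at chr14:115044183-115044205 (plus strand).
mmu-miR-294-3p: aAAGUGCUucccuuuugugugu
mmu-miR-20a-5p: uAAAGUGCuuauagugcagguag

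A 3' UTR (the part of an mRNA after the coding sequence) was searched for AGCACTT, the 7 bases complementary to the miR-294 seed, for GCACTTT, those of miR-20a, and for CTACCTC, those of let-7a. Only the mRNA strand was searched, and the motifs of miR-294 and miR-20a overlap where AGCACTT is followed by a T. Among 12920 tested genes with a 3' UTR of at least 50 bases, whose median length was 1365, AGCACTT was present in 18.6%, GCACTTT in 15.1%, CTACCTC in 12.2% and at least 1 of the 3 in 32.7%. None of the 3 motifs was found in the 3' UTRs of Id1 (563 bases), Id2 (785 bases), Id3 (536 bases), Bmp4 (339 bases), Bmpr1a (3810 bases) or Smad1 (2041 bases). Bmpr2 had GCACTTT at 2 places in 8529 bases, Smad6 at 1 place in 448 bases and Smad7 at 1 place in 1570 bases. Smad5 had AGCACTT at 2 places and GCACTTT at 1 place in 4899 bases. A match is a description of these letters and not a measured site.

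Some of the matches, not all, are printed below. They are from Smad5 and Smad6, genes of the set that differed, and from Dazap2 and Tob2. Dazap2 and Tob2 rose and are described with the other pathway genes. The motif is in capitals, the build is GRCm38, and each position is that of the motif. They lie at chr13:56740758-56740764 and chr13:56741486-56741492 (plus strand) for Smad5, chr9:63953285-63953291 (minus strand) for Smad6, chr15:100619542-100619548 (plus strand) for Dazap2 and chr15:81850137-81850143 (minus strand) for Tob2.
Smad5, AGCACTT, upstream match: ggtcacttccctggcAGCACTTgg
Smad5, AGCACTT, downstream match: gtaggtcagtgctcgAGCACTTag
Smad6, GCACTTT: agaaacaagaaagacGCACTTTgg
Dazap2, AGCACTT: acatcacataccttcAGCACTTct
Tob2, AGCACTT: gactatagggaggttAGCACTTtt

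Promoters are shown for Id2, Id3 and Smad6, which were higher in the lines without miRNA processing. The RefSeq promoter table (GRCm38.p6), from 250 bases before to 50 bases after each start, held 8 of the 10 genes. It was searched for 2 palindromic motifs bound by SMAD proteins, GGCGCC and GTCTAGAC, which read the same on both strands and do not overlap each other. GGCGCC was found in 11.9% of 32851 promoters and GTCTAGAC in 0.213%. Id2 (chr12:25096043-25096342, minus strand) had GGCGCC at −231 from its start, Smad6 (chr9:64022010-64022309, minus strand) had GTCTAGAC at −4 from its start, and Id3 (chr4:136143572-136143871, plus strand) had neither. GGCGCC was in 4 of the 8 genes: besides Id2 it lay at −198 in Bmpr1a and −105 in Bmpr2, which were not called, and in Smad5, which fell, at 24 and −19 from 2 of its 3 listed starts. This count is of genes with a match at any listed start. The 11.9% is a share of single promoters, so the 2 are not like for like. Id1, which was also higher, and Smad7 had no promoter listed. The motif is in capitals.
Id2: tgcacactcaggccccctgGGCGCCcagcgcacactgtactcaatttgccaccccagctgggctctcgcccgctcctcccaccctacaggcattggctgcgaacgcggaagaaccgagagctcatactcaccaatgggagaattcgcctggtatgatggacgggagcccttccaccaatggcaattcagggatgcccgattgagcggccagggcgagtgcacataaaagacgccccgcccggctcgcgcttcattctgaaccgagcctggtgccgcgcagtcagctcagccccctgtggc
Id3: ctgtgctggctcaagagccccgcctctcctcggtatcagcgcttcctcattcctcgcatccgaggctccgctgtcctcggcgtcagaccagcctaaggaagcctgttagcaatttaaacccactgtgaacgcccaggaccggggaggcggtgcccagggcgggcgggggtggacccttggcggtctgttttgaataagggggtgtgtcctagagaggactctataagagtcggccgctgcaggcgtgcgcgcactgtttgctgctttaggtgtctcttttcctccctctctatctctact
Smad6: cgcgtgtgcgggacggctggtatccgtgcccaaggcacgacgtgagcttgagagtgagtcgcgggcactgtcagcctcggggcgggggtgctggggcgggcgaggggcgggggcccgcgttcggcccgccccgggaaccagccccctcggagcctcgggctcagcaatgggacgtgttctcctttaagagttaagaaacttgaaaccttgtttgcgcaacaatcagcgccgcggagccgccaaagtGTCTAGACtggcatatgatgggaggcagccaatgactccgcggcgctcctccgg

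The libraries held 5348401 to 10428509 counted reads. Levels are in CPM, counts scaled to the size of the library. Differences are log2 folds with the standard error (SE) of an edgeR quasi-likelihood fit over all 12 libraries, and a gene was called where its Benjamini-Hochberg adjusted p, over all tested genes, was under 0.05. Dicer1 mRNA was at 197 and 214 CPM in WT and at 28.5 and 44.0 CPM in KO. It was at 29.1 and 39.2 CPM in 41585, at 42.3 and 55.03 CPM in 41584, at 40.2 and 27.8 CPM in 41589 and at 105 and 215 CPM in SOM, so its level does not separate 41584 or 41589 from KO. How much of the Dicer1 sequence put back the counts can see is not known, and these levels do not measure the protein. Markers of embryonic stem cells were present in every library, summing to 5675 to 7373 CPM over 8 genes. Single markers did differ in the pooled comparison below. By edgeR, Pou5f1 (adjusted p = 0.0254, 140 to 946 CPM over all libraries) and Dppa5a (0.0119) were higher in KO and 41585. Zfp42 (0.0105) was lower. Of 6 fibroblast markers, which summed to 6.37 to 27.5 CPM, Thy1 was at 5.75 to 25.4 CPM in every library, while Col1a1 was at 0 in 3 libraries, Col1a2 in 4, Dcn in 8, Postn in 9 and Col3a1 in 11. Markers of differentiated cells moved both ways with the pooled groups compared below. Of the neuroectoderm markers tested, Pax6 (adjusted p = 0.000908) and Otx2 (0.0294) were higher in KO and 41585, and Sox1 (0.0197) and Neurod1 (0.00595) lower. Of 4 mesoderm markers tested, T (0.0113) and Eomes (0.0126) were lower and Hand1 (0.00229) higher. Of 5 primitive endoderm markers tested, Gata6, Sox7, Pdgfra and Dab2 were lower and Gata4 was not called. Of 5 trophectoderm markers tested, Elf5, Krt7 and Hand1 were higher. Tfap2a (−0.75) and Ascl2 (−0.87) had negative log2 folds and were not called. Over all libraries Elf5 was at 0 to 9.27 CPM, Krt7 at 0 to 17.9 CPM and Hand1 at 0.0913 to 2.16 CPM. Whether a marker passed the low-count filter only through the groups where it was high was not examined. The marker calls are therefore a description. The part of the markers in the results was not tested. On the second principal component of log2 CPM (19.5% of the variance), both SOM libraries and replicate 2 of 41584 and of 41589 stood apart from the other 8 libraries, at −39.6 to −51.1 against −3.59 to 53.8.

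Compared per kilobase of exon, the median level over the 12 libraries was highest for Bmpr1a, at 20.8 CPM per kilobase. Smad7 followed with 14.0, Id1 with 10.3, Smad5 with 8.32 and Bmp4 with 7.93 CPM per kilobase. Id2 had 5.03, Id3 3.55, Bmpr2 3.03, Smad1 2.59 and Smad6 0.357 CPM per kilobase. Smad6 rested on 4 to 29 reads a library, and Id3 on as few as 2 reads in replicate 1 of WT.

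The main comparison set the lines without miRNA processing, KO and 41585, against WT, 41584 and 41589. Each group mean was weighted equally and SOM was left out. Line 41589 was placed with the lines that process miRNAs because its label names only siRNAs as not processed. That placing is an inference. Id1, Id2, Id3 and Smad6 rose in the lines without miRNA processing, and Bmp4 and Smad5 fell. Of the 10 genes, 4 were called higher, where 17.6% of all tested genes were, and 2 lower, where 15.9% were. The median log2 fold of the 10 was −0.03, beside −0.01 over all tested genes. Smad6 passed the low-count filter only through KO and 41585, so it had to be higher there. Without it, 3 of 9 genes were higher and 2 lower, with a median of −0.31. For Id1 and Id2, all 4 libraries of KO and 41585 lay above all 6 of the others, which held for 11.4% of tested genes. The same held for Smad6, but it is not counted here because of how it passed the filter. No gene of the set had all 4 libraries below all 6, which held for 9.85% of tested genes. The calls of Id1, Id2 and Id3 held whichever library was left out, in 10 of 10 fits each.

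Id2 (chr12:25093799-25097140, minus strand) had the smallest p of the set. It was at 38.1 and 50.8 CPM in KO and at 31.5 and 35.1 CPM in 41585. WT held 10.7 and 9.30 CPM of it, 41584 held 4.60 and 13.1 CPM, 41589 held 8.45 and 13.5 CPM and SOM held 11.1 and 11.5 CPM. The KO and 41585 libraries did not overlap those of any other group, KO lay above 41585, and the ranges of the remaining 4 groups overlapped from neighbour to neighbour. The pooled difference was 1.96 ± 0.26 (log2 fold ± SE, 3.89-fold, 4 libraries against 6, edgeR adjusted p = 0.000202).

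Id1 (chr2:152736251-152737410, plus strand) was at 21.1 and 19.7 CPM in KO and at 21.8 and 30.7 CPM in 41585. In WT it was at 4.18 and 5.80 CPM, in 41584 at 8.95 and 11.2 CPM and in 41589 at 9.73 and 12.8 CPM. The SOM libraries lay far apart, at 27.1 and 9.96 CPM, one inside the range of KO and 41585 and the other inside that of 41584 and 41589. WT was lowest and did not overlap its neighbour 41584, 41584 overlapped 41589, and 41585 was highest without overlap with KO. The pooled difference was 1.48 ± 0.28 (2.79-fold, adjusted p = 0.00164).

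Id3 (chr4:136143497-136145755, plus strand) was lowest in WT, at 0.309 and 1.64 CPM, and highest in 41585, at 18.7 and 20.5 CPM. KO held 9.64 and 5.39 CPM, 41584 held 2.68 and 4.82 CPM, 41589 held 3.42 and 10.3 CPM and SOM held 10.3 and 7.33 CPM. WT and 41585 overlapped no other group, while SOM, KO and 41589 overlapped. Replicate 2 of 41589 lay above both KO libraries, so the pooled groups overlap. The pooled difference was 2.02 ± 0.40 (4.05-fold, adjusted p = 0.00223).

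Bmp4 (chr14:46383520-46390669, minus strand), the BMP ligand gene of the set, went the other way. It was at 11.6 and 6.77 CPM in KO and at 11.0 and 16.3 CPM in 41585. WT held 13.0 and 31.0 CPM, 41584 held 19.3 and 29.7 CPM, 41589 held 14.2 and 52.1 CPM and SOM held 34.5 and 39.6 CPM. KO was lowest and SOM highest, but each group overlapped its neighbour in that order, and the pooled groups overlapped. The pooled log2 fold was −1.22 ± 0.37 (adjusted p = 0.0237). It did not pass when replicate 2 of WT (adjusted p = 0.0662), replicate 2 of KO (0.0994) or replicate 1 of 41585 (0.0904) was left out. Within 41584 and 41589 the libraries near SOM on the second component were the higher ones for Bmp4, and without both the fold was −0.70 (adjusted p = 0.0636).

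**Figure D1:**
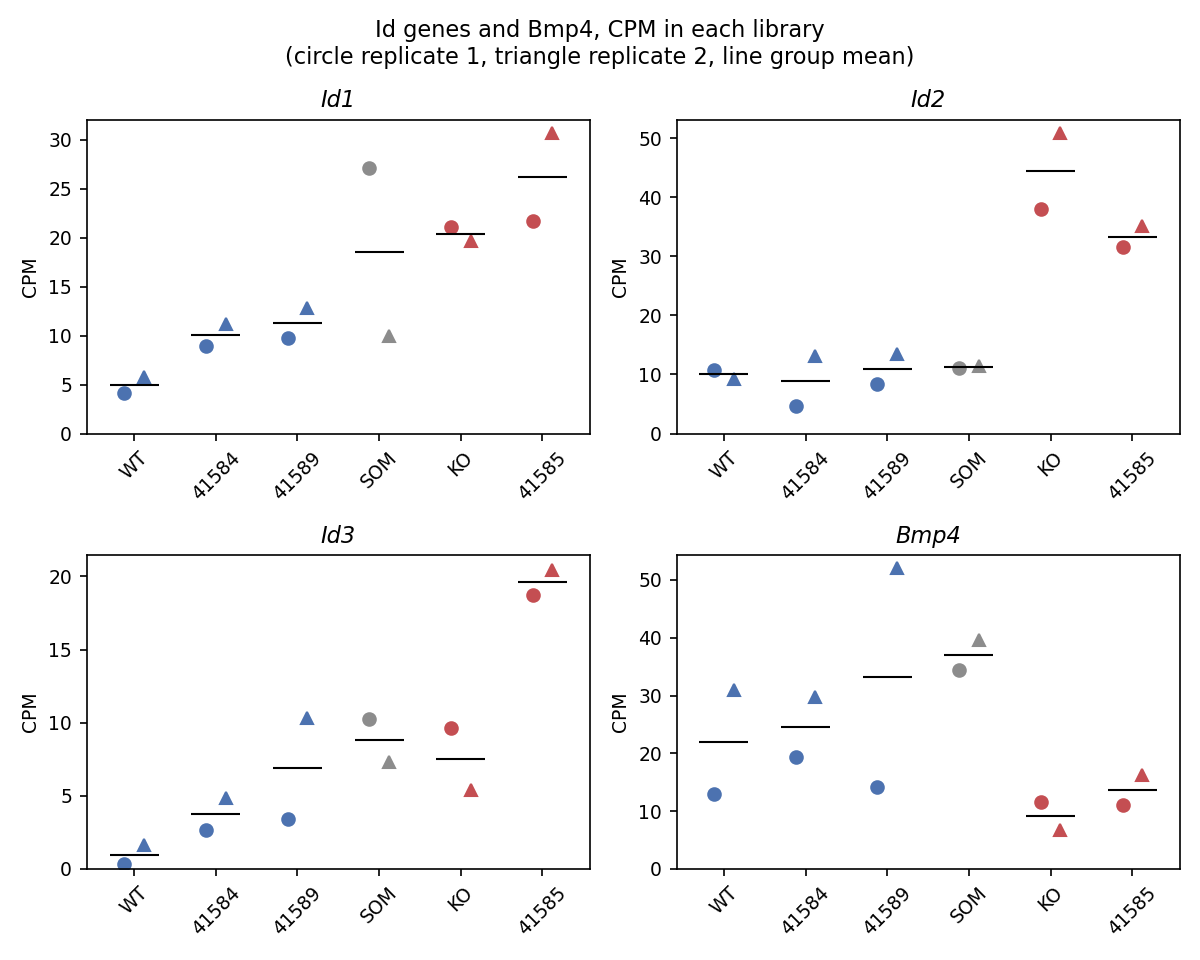
CPM of Id1, Id2, Id3 and Bmp4 in each of the 12 libraries by group; points are libraries and the bar is the mean of 2. Id2 sits at 31.5 to 50.8 CPM in KO and 41585 and at 4.60 to 13.5 CPM in every other group, while Bmp4 is highest in SOM, at 34.5 and 39.6 CPM, and in replicate 2 of 41589, at 52.1 CPM.

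The receptor genes were not called. Bmpr1a (chr14:34410734-34503341, minus strand), a type I receptor that binds BMP2 and BMP4, was at 106 and 140 CPM in KO and at 89.9 and 110 CPM in 41585. It was at 166 and 149 CPM in WT, at 130 and 158 CPM in 41584, at 165 and 101 CPM in 41589 and at 107 and 134 CPM in SOM. All neighbouring groups overlapped, and the pooled log2 fold was −0.38 ± 0.17 (95% interval −0.76 to −0.01, adjusted p = 0.107). Without replicate 2 of 41589 it was called lower (−0.49, adjusted p = 0.0259), and without both libraries near SOM as well (−0.44, adjusted p = 0.0289).

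Bmpr2 (chr1:59763400-59879014, plus strand), the type II receptor, was at 68.3 and 97.3 CPM in KO but at 48.0 and 56.1 CPM in 41585. The other groups held 69.4 and 52.7 CPM (WT), 47.4 and 55.7 CPM (41584), 63.3 and 42.5 CPM (41589) and 35.7 and 53.4 CPM (SOM). KO had the highest mean and overlapped WT, and the other groups overlapped one another. The pooled log2 fold was 0.26 ± 0.19 (95% interval −0.15 to 0.66, adjusted p = 0.305).

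Of the transducers phosphorylated by the receptors, Smad5 fell and Smad1 was not called. Smad5 (chr13:56703010-56742377, plus strand) was at 43.2 and 59.0 CPM in KO and at 41.5 and 44.0 CPM in 41585. It was highest in WT, at 93.6 and 86.0 CPM, with 84.8 and 64.5 CPM in 41589, 53.0 and 74.2 CPM in SOM, and 88.0 and 35.3 CPM in 41584. Replicate 1 of 41584 lay between the WT libraries, every other library lay below both, and replicate 2 of 41584 was the lowest of all 12. The pooled log2 fold was −0.67 ± 0.23 (adjusted p = 0.0408), and this call held in 2 of the 10 fits that left out 1 library, over which adjusted p ran from 0.00277 to 0.168.

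Smad1 (chr8:79338395-79399518, minus strand) was at 16.0 and 12.8 CPM in KO and at 14.6 and 14.9 CPM in 41585. WT held 25.8 and 17.9 CPM, 41584 held 15.5 and 16.5 CPM, 41589 held 20.4 and 15.4 CPM and SOM held 19.2 and 17.5 CPM. The lowest values were those of KO and 41585, except that replicate 1 of KO lay within the range of 41584 and 41589. The pooled log2 fold was −0.34 ± 0.20 (95% interval −0.78 to 0.10, adjusted p = 0.217).

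Of the inhibitory Smads, Smad6 rose and Smad7 was not called. Smad6 (chr9:63953076-64022059, minus strand), which binds SMAD1 and the type I receptors, was at 2.56 and 1.69 CPM in KO and at 3.39 and 2.32 CPM in 41585. It was at 0.773 and 0.547 CPM in WT, 1.02 and 1.09 CPM in 41584, 1.07 and 1.46 CPM in 41589 and 1.20 and 0.752 CPM in SOM. KO and 41585 overlapped each other and lay above every other library, and WT had the lowest mean. The pooled difference was 1.36 ± 0.37 (2.56-fold, adjusted p = 0.014). It did not pass when replicate 1 of KO (adjusted p = 0.0926) or replicate 1 of 41585 (0.0709) was left out. All 4 libraries of KO and 41585 reached the filter's 1.33 CPM (on unscaled totals) but only 1 of the other 8, so this call is a description. With no filter the fold was 1.35 (adjusted p = 0.0166).

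Smad7 (chr18:75367529-75395935, plus strand), which also inhibits TGF-beta signalling, was at 56.0 and 54.2 CPM in KO and at 68.7 and 53.6 CPM in 41585. WT held 54.4 and 62.8 CPM, 41584 held 75.8 and 59.8 CPM, 41589 held 75.9 and 111 CPM and SOM held 63.8 and 82.9 CPM. Each group overlapped its neighbour, and replicate 2 of 41589 was the highest library. The pooled log2 fold was −0.31 ± 0.17 (95% interval −0.67 to 0.05, adjusted p = 0.165).

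**Figure D2:**
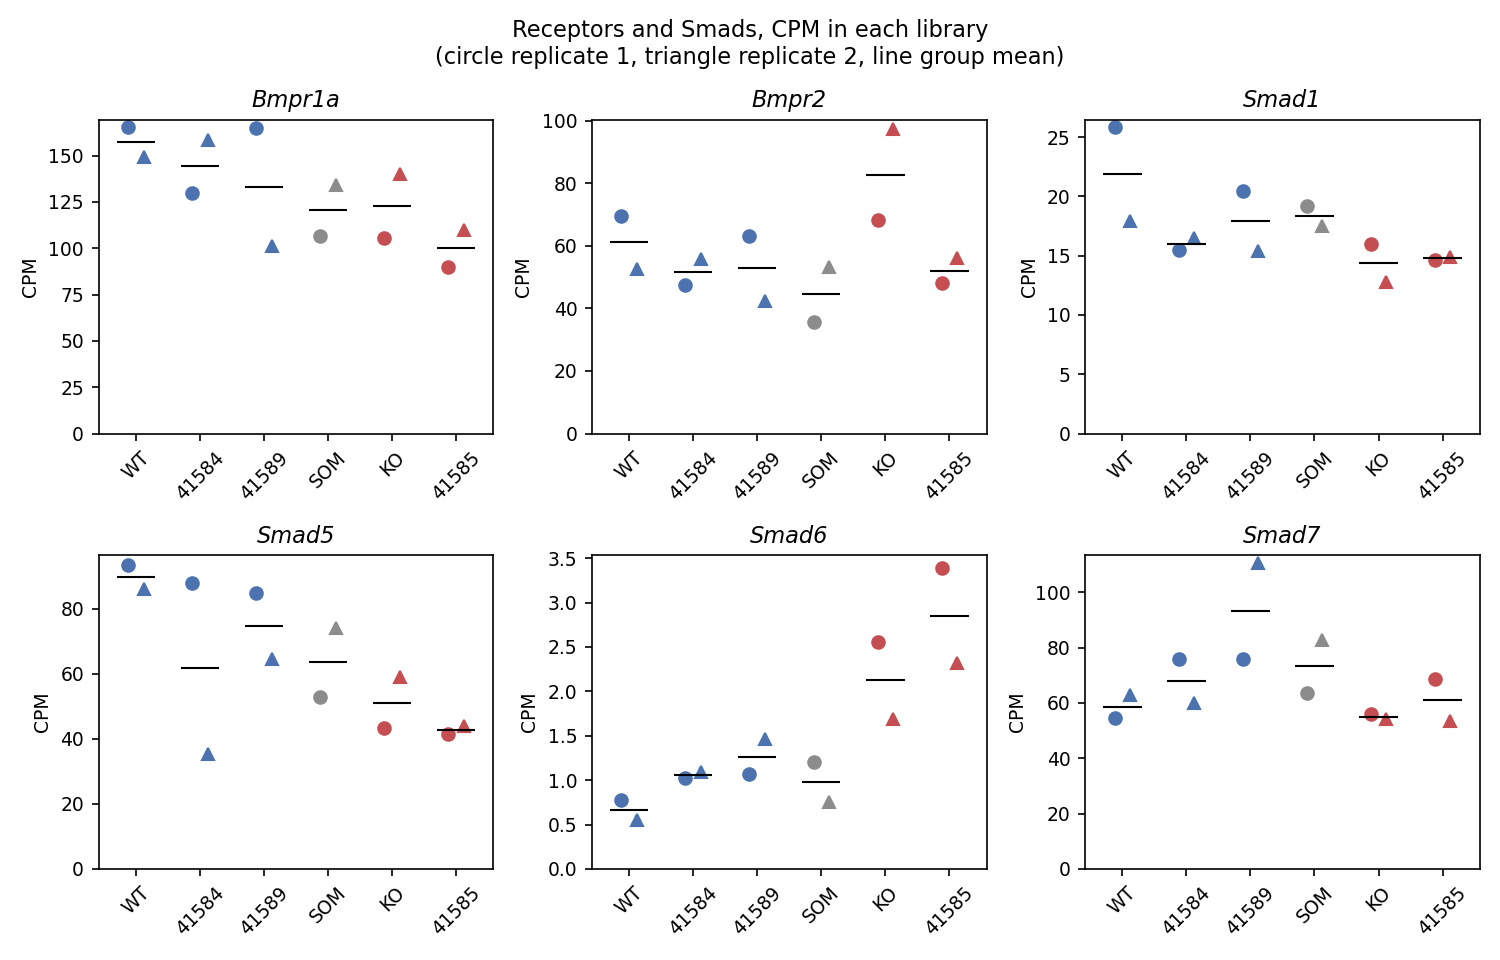
CPM of Bmpr1a, Bmpr2, Smad1, Smad5, Smad6 and Smad7 in each of the 12 libraries by group; points are libraries and the bar is the mean of 2. Smad6 sits at 1.69 to 3.39 CPM in KO and 41585 and at 0.547 to 1.46 CPM elsewhere, while for each of the other genes the KO and 41585 libraries overlap those of WT, 41584 and 41589.

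In bulk RNA, fewer cells of a type and less RNA per cell cannot be told apart. Marker genes of other cell types moved with some of these groups. Primitive endoderm markers (7 genes) summed to 5.85 to 9.27 CPM in KO and 41585 and to 9.13 to 68.1 CPM in WT, 41584 and 41589, with Gata6 at 0 in 2 and Sox17 in 3 of the 12 libraries. Trophectoderm markers (6 genes) summed to 25.6 and 26.2 CPM in the KO libraries, 2.57 to 17.4 CPM in 41585 and 3.29 to 9.74 CPM in WT, 41584 and 41589, with Cdx2 at 0 in 7 libraries. The sums of mesoderm markers (9.51 to 14.5 against 8.97 to 28.7 CPM over 6 genes), neuroectoderm markers (35.3 to 154 against 23.5 to 84.6 CPM over 6 genes) and fibroblast markers (6.47 to 14.4 against 6.37 to 27.5 CPM over 6 genes) overlapped between the pooled groups. The part of these cells in the differences above was not tested.

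The knockout alone was compared with WT, which addresses the loss of Dicer. The 3 Id genes were the ones called, all higher in KO. For Id1 the log2 fold was 2.02 ± 0.45 (4.06-fold, 2 libraries against 2, edgeR adjusted p = 0.0145), for Id2 2.15 ± 0.43 (4.45-fold, adjusted p = 0.00871) and for Id3 2.85 ± 0.70 (7.19-fold, adjusted p = 0.0206). Both KO libraries were above both WT libraries for each. Higher calls made up 7.29% of all tested genes and lower calls 5.9%, with 3 and 0 among the 10 genes. Smad6 (1.69 ± 0.62, adjusted p = 0.0879), Bmp4 (−1.26, adjusted p = 0.156) and Smad5 (−0.81 ± 0.36, adjusted p = 0.144) did not pass, though Bmp4 did with no filter (−1.24, adjusted p = 0.0186). Without replicate 1 of WT none of the 10 was called (adjusted p of 0.141 for Id1, 0.0792 for Id2 and 0.167 for Id3), and without any 1 of the other 3 libraries 1 gene was.

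The same question can be put to 2 complemented lines, 41585 against 41584, which share no library with KO and WT. Id2 rose by 1.92 ± 0.43 (log2 fold, 3.80-fold, adjusted p = 0.0158) and Id3 by 2.39 ± 0.62 (5.24-fold, adjusted p = 0.0288). Id1 gave 1.38 ± 0.44 (adjusted p = 0.054) and was called with no filter on low counts (adjusted p = 0.0156) and with DESeq2 (adjusted p = 0.0223), and Smad6 1.43 ± 0.58 (adjusted p = 0.115). Both 41585 libraries were above both 41584 libraries for all 4 genes. Higher calls made up 7.65% of all tested genes and lower calls 5.07%, with 2 and 0 among the 10. Without either 41585 library no gene of the set was called, and without either 41584 library Id3 was not (adjusted p = 0.0966 without replicate 1 and 0.0515 without replicate 2). Without replicate 2 of 41584, whose Smad5 level was the lowest, Smad5 was called lower in 41585 (−1.06, adjusted p = 0.0411).

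The 2 differences were compared in the same fit, by subtracting KO less WT from 41585 less 41584. By edgeR no gene of the 14629 was called, and 419 had an unadjusted p under 0.05. The change of Id1 differed by −0.64 ± 0.62 (log2), that of Id2 by −0.23 ± 0.59 and that of Id3 by −0.46 ± 0.90, each with an adjusted p of 0.999. The test does not show that the changes are alike.

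**Figure D3:**
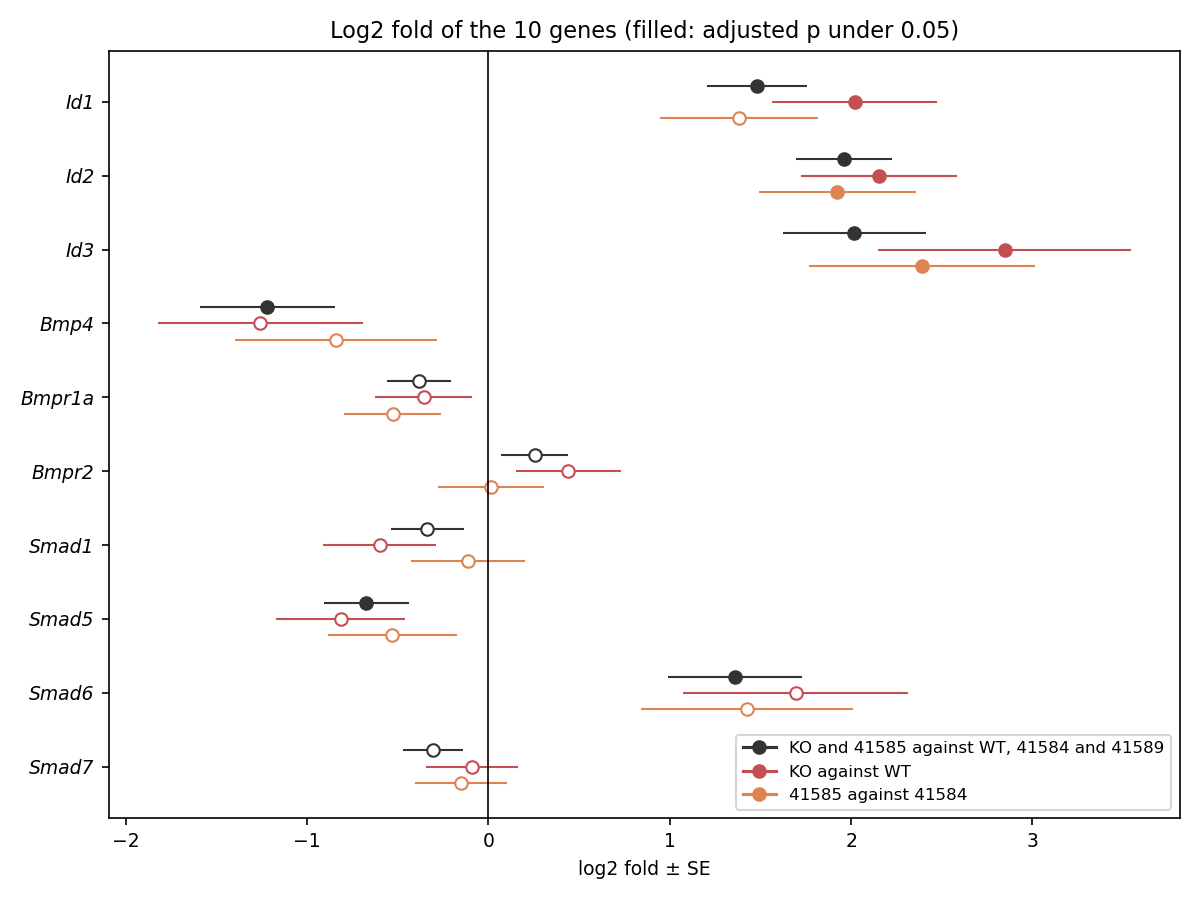
Log2 folds ± SE of the 10 genes in the pooled comparison, in KO against WT and in 41585 against 41584 (edgeR, 12 libraries in the fit). Id1, Id2, Id3 and Smad6 lie to the right of 0 in all 3 comparisons, from 1.36 to 2.85, and Bmp4 and Smad5 lie to the left.

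KO and 41585 were compared directly. No gene was called (0% of tested genes), by edgeR on the 10 or on all 14629, while 995 genes had an unadjusted p under 0.05 and DESeq2 called 1 gene, not of the set. Among those 995 were Id3, higher in 41585 (1.37 ± 0.59, 2.59-fold, adjusted p = 0.642), and Bmpr2, lower in 41585 (−0.67 ± 0.29, adjusted p = 0.642). For both, the KO and 41585 libraries did not overlap.

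The complemented lines other than 41585 were each compared with KO, whose libraries all 3 comparisons share. Id2 was the only gene of the set called in each, and it was lower than in KO. Its log2 fold was −2.34 ± 0.44 in 41584 (adjusted p = 0.00743), −2.01 ± 0.42 in 41589 (adjusted p = 0.0142) and −1.97 ± 0.43 in SOM (adjusted p = 0.0184). Lower calls made up 4.98% of tested genes in 41584, 4.65% in 41589 and 4.6% in SOM. Higher calls made up 2.46%, 2.44% and 1.48%, and none was of the set. Bmpr2 and Smad6 were also lower than in KO in each line without being called. In 41584, 41589 and SOM the log2 folds were −0.68, −0.65 and −0.90 for Bmpr2 and −1.01, −0.75 and −1.11 for Smad6. Smad1, Smad5 and Smad7 were higher than in KO in each line and not called, with Smad7 at 0.76 in 41589 (edgeR adjusted p = 0.0967). Bmpr1a went both ways.

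Id1 and Id3 were not called in these comparisons. Against KO, Id1 gave −1.02 ± 0.44 in 41584 (adjusted p = 0.184), −0.86 ± 0.43 in 41589 (adjusted p = 0.279) and −0.14 ± 0.43 in SOM (adjusted p = 0.902). Id3 gave −1.01 ± 0.62 in 41584 (adjusted p = 0.373), −0.13 ± 0.59 in 41589 (adjusted p = 0.934) and 0.22 ± 0.60 in SOM (adjusted p = 0.884). The 95% interval of the SOM fold was −1.06 to 0.79 for Id1 and −1.07 to 1.52 for Id3, against −2.90 to −1.04 for Id2. Whether the change of Id2 differs from that of Id1 or Id3 was not tested.

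Bmp4 had a higher mean than in KO in each of the 3 lines and was not called. Its log2 fold was 2.0 ± 0.57 in SOM (4.01-fold, adjusted p = 0.0592), 1.85 ± 0.57 in 41589 (adjusted p = 0.0726) and 1.4 ± 0.57 in 41584 (adjusted p = 0.161). All 6 libraries of those lines lay above both KO libraries. With DESeq2, Bmp4 was called in SOM (2.0, adjusted p = 0.00541) and in 41589 (1.83, adjusted p = 0.0124).

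Leaving out 1 library ended several of the Id2 calls. In SOM against KO no gene of the set was called without any 1 of the 4 libraries. In 41589 none was called without either KO library, and in 41584 none without replicate 2 of KO. Without replicate 1 of 41589 Id2 was not called there (−1.71, adjusted p = 0.0735), whereas Bmp4 was called higher (2.49, adjusted p = 0.0213). Id2 remained lower in every one of these fits.

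**Figure D4:**
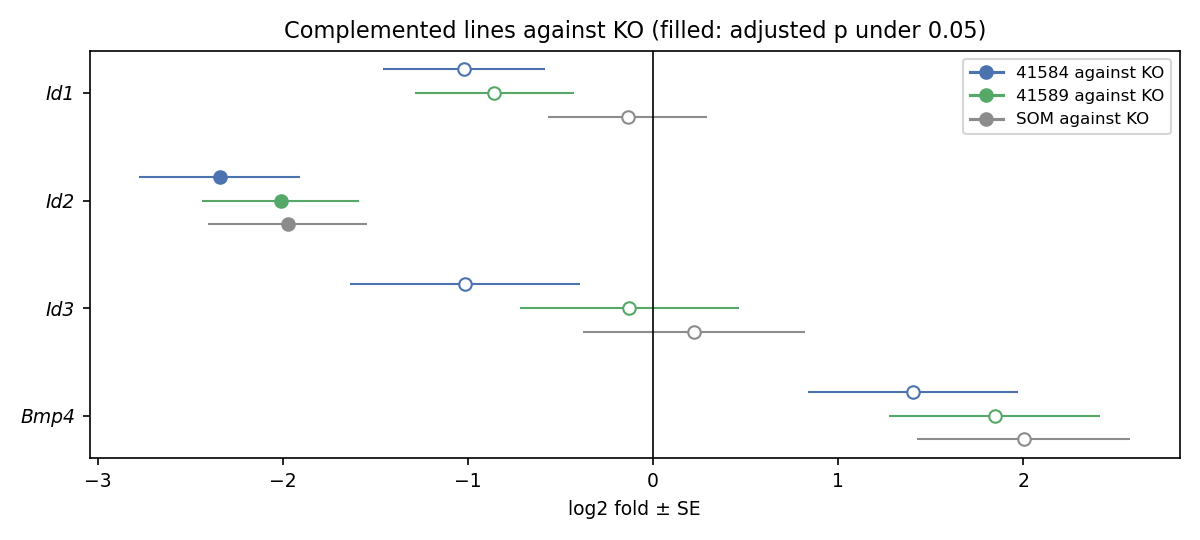
Log2 folds ± SE of Id1, Id2, Id3 and Bmp4 in SOM, 41584 and 41589, each against KO (edgeR, 2 libraries against 2). Id2 lies between −2.34 and −1.97 in all 3 lines, while Id3 runs from −1.01 in 41584 to 0.22 in SOM and Bmp4 from 1.4 to 2.0.

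SOM was compared with WT, and no gene was called by edgeR (0% of tested genes), although 3175 genes had an unadjusted p under 0.05. Id1 and Id3 were among those 3175. Id1 was higher in SOM by a log2 fold of 1.88 ± 0.46 (3.69-fold, adjusted p = 0.135) and Id3 by 3.07 ± 0.70 (8.40-fold, adjusted p = 0.135), with both SOM libraries above both WT libraries. Id2 gave 0.18 ± 0.43 (95% interval −0.75 to 1.11, adjusted p = 0.827). DESeq2 called 550 genes, Id1 (adjusted p = 0.00828) and Id3 (adjusted p = 0.00247) among them.

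In 41584 against WT no gene was called (0% of tested genes), and 706 had an unadjusted p under 0.05, among them Id1 (1.00 ± 0.45, adjusted p = 0.883) and Id3 (1.83 ± 0.71, adjusted p = 0.883). DESeq2 called 25 genes, none of the set. In 41589 against 41584, which differ by siRNA processing per the labels, no gene was called (0% of tested genes). Here 103 genes had an unadjusted p under 0.05, none of the set, and DESeq2 called 0. The intervals remained wide, at −0.78 to 1.10 for Id1, −0.59 to 1.25 for Id2 and −0.45 to 2.22 for Id3.

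Beyond the 10 genes, 64 further genes of the pathway were listed in 7 roles, of which 37 passed the filter on low counts and 1, Hjv, was not matched by symbol. In the pooled comparison 8 of the 37 were higher, 6 lower and 23 not called, with a median log2 fold of 0.19 against −0.01 over all tested genes. These are 21.6% and 16.2% of the 37, near the 17.6% and 15.9% of all tested genes. Rgma and Msx2 passed the filter only through KO and 41585, and without them 6 of 35 were higher (17.1%) and 6 lower, with a median of 0.16. In KO against WT 4 were higher (Dazap2, Gdf3, Rgma and Fstl1) and 2 lower (Bmp7 and Twsg1), where 7.29% and 5.9% of all tested genes were. The counts were 3 (Dazap2, Tob2 and Rgma) and 1 (Tcf4) in 41585 against 41584, where 7.65% and 5.07% were. The counts by role below rest on 1 to 10 genes each and stand beside the same pooled shares.

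Of the 8 higher genes, 5 (Dazap2, Tob2, Ppm1a, Rgma and Id4) hold AGCACTT or GCACTTT in the 3' UTR, Gdf3 holds only CTACCTC, and Fstl1 and Msx2 hold none of the 3 motifs. Of the 6 lower genes, Tcf4 holds GCACTTT at 2 places and the other 5 hold none. These counts carry no test. No share of all tested genes with AGCACTT or GCACTTT stands beside them. At least 1 of the 3 motifs was in 32.7% of tested genes with a 3' UTR, of median length 1365 bases. The 3' UTRs of Ppm1a (6078 bases), Id4 (3093) and Tcf4 (6007) are longer. Rgma and Msx2 passed the filter only through the lines where they were higher. Genes of the set are not counted. In it Smad5 fell with both motifs and Bmp4 with none. Smad6 rose with GCACTTT, and Id1, Id2 and Id3 with none.

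Of the intracellular inhibitors, 3 of the 10 tested were higher and 1 lower. Dazap2, reported in human embryonic stem cells with Tob2 and Slain1 as a miR-302 family target that restrains BMP signalling, was at 289 to 399 CPM in KO and 41585. It was at 66.4 to 140 CPM in WT, 41584 and 41589 and at 87.8 and 98.3 CPM in SOM. No library of KO or 41585 overlapped another group for Dazap2. All 4 libraries of KO and 41585 lay above all 6 of WT, 41584 and 41589 for 11.4% of tested genes. Tob2, Gdf3, Fstl1 and Ppm1a were among those genes too. The pooled log2 fold of Dazap2 was 1.85 ± 0.20 (adjusted p = 3.75e-05). Its 3' UTR of 1265 bases holds the AGCACTT match printed above and 1 of GCACTTT.

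Tob2, a BTG/TOB family protein, rose with Dazap2, from 9.59 to 11.9 CPM in WT, 41584 and 41589 to 20.7 to 27.1 CPM in KO and 41585 (1.09 ± 0.21, adjusted p = 0.00189). SOM had less of it than any other group, 5.45 and 8.74 CPM. The 3' UTR of Tob2 holds the AGCACTT match printed above, GCACTTT at 2 places and CTACCTC at 1 place. Ppm1a, a phosphatase reported to act on SMAD proteins, rose by 0.50 ± 0.12 (adjusted p = 0.00806), and its 3' UTR holds AGCACTT at 2 places. Slain1 fell (−0.78 ± 0.24, adjusted p = 0.0263), and its 3' UTR of 996 bases holds none of the 3 motifs.

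Among the 3 tested ligands Gdf3 rose and Bmp7 fell. Gdf3, a Nodal-like ligand that can also restrain BMP, was at 91.7 to 114 CPM in KO and 41585, at 15.9 to 71.0 CPM in WT, 41584 and 41589 and at 66.9 and 73.7 CPM in SOM (1.5 ± 0.29, adjusted p = 0.00204). Bmp7 was at 1.83 to 2.93 CPM against 2.33 to 12.4 CPM (−1.67 ± 0.42, adjusted p = 0.00907), with SOM at 2.44 and 2.91 CPM.

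Of the 8 tested receptors and co-receptors 1 was higher and 1 lower. Rgma, a BMP co-receptor, was at 1.69 to 6.56 CPM in KO and 41585 and at 0 to 0.895 CPM in WT, 41584 and 41589 (adjusted p = 0.000455), and WT held only 3 reads of it over both libraries. It passed the filter through KO and 41585 alone, with none of the other 8 libraries over 1.33 CPM, and with no filter its adjusted p was 4.62e-09. Acvr2a, a type II receptor for activin and BMPs, fell (−0.88 ± 0.23, adjusted p = 0.00984). Smad4, the shared partner of the receptor-activated Smads, fell, with 68.8 to 81.7 CPM in KO and 41585 against 86.8 to 113 CPM in WT, 41584 and 41589 (−0.45 ± 0.14, adjusted p = 0.0242). All 4 KO and 41585 libraries lay below all 6 of WT, 41584 and 41589 for Smad4, and likewise for Tcf4. This held for 9.85% of tested genes.

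Of 6 tested secreted or membrane inhibitors, the follistatin-like Fstl1 rose (0.70 ± 0.15, adjusted p = 0.00354) and Twsg1, a BMP-binding protein, fell (−0.59 ± 0.18, adjusted p = 0.0237). Of 6 tested targets and readers, Id4 rose by 1.16 ± 0.31 (adjusted p = 0.0116), as did the homeobox gene Msx2 (1.32 ± 0.38, adjusted p = 0.0178). Neither passed in KO against WT, where Id4 gave 0.39 ± 0.47 (adjusted p = 0.615) and Msx2 1.35 ± 0.62 (adjusted p = 0.164). For Msx2, 1 of the 8 libraries outside KO and 41585 reached 1.33 CPM, and with no filter its adjusted p was 0.0174. Of the 3 E-protein genes whose products Id proteins bind, Tcf4 fell (−0.62 ± 0.17, adjusted p = 0.0159) and the other 2 were not called. In KO against WT Tcf4 gave −0.27 ± 0.26 (adjusted p = 0.512), and in 41585 against 41584 −0.99 ± 0.27 (adjusted p = 0.0318). Dazap2, Rgma, Tob2, Gdf3 and Fstl1 were called whichever library was left out, while the remaining 9 genes lost their call in 1 to 4 of 10 such fits. Smad4 was not called with no filter (−0.45, adjusted p = 0.0669), nor Twsg1 with SOM added to the lines with miRNA processing (−0.45, adjusted p = 0.0636).

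**Figure D5:**
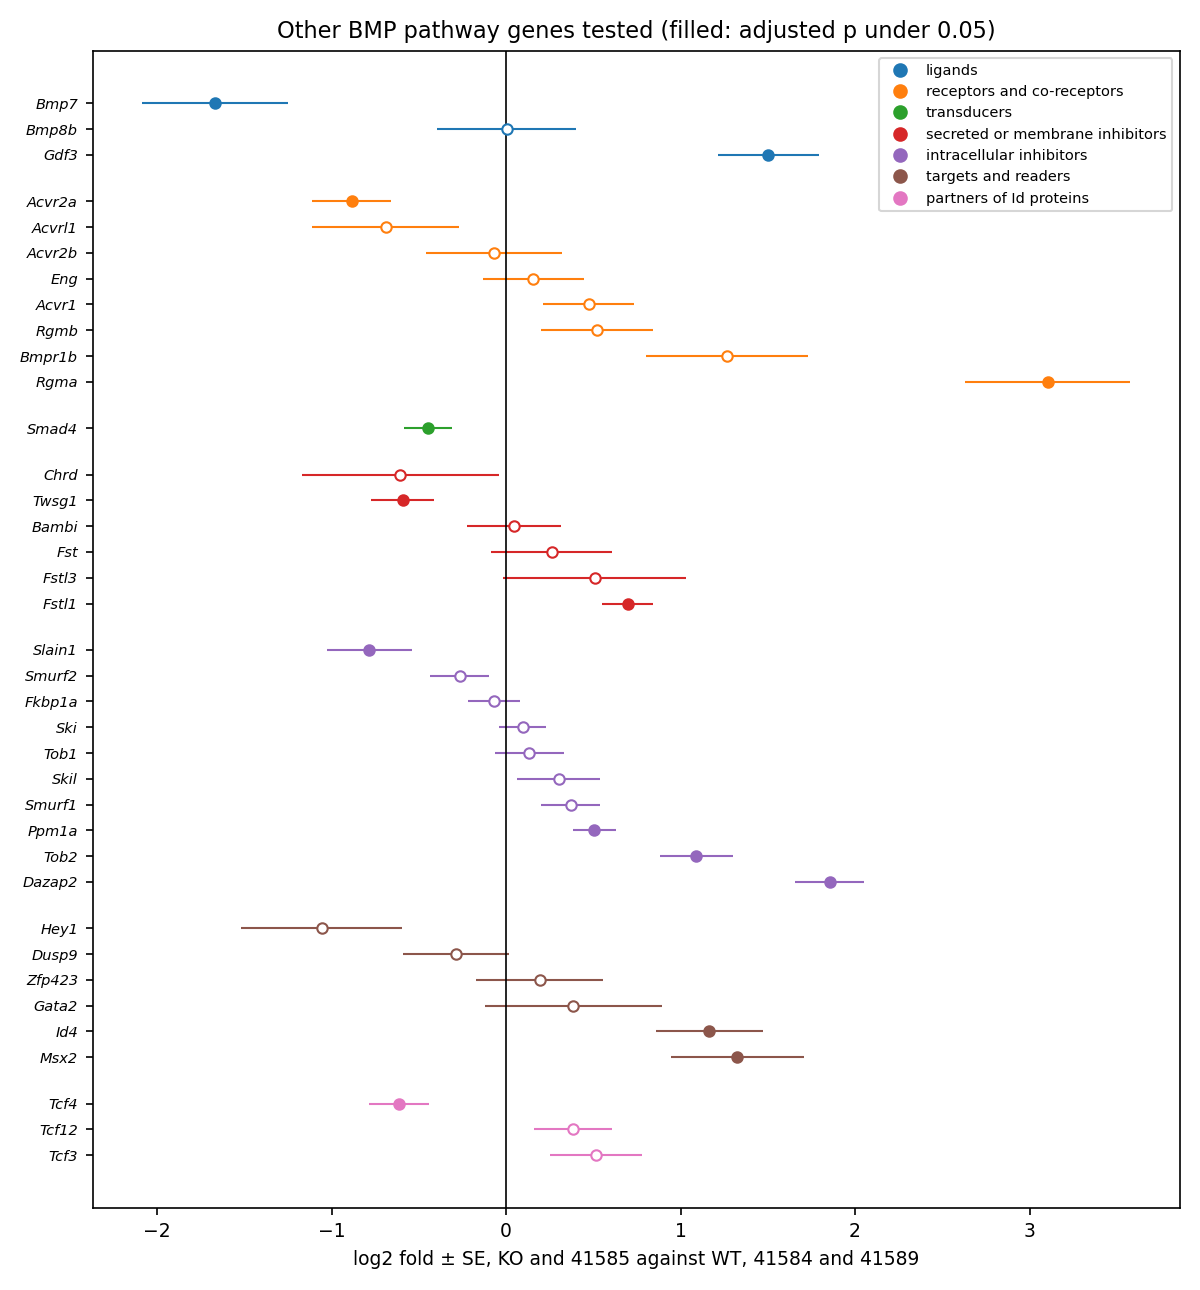
Pooled log2 folds ± SE of the 37 other pathway genes tested, coloured by role, with KO and 41585 against WT, 41584 and 41589; filled points have an adjusted p under 0.05. Dazap2 (1.85), Gdf3 (1.5) and Tob2 (1.09) are among the 8 higher genes, and Bmp7 (−1.67) among the 6 lower.

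Correlations of log2 CPM over the 12 libraries describe which genes varied alike. Within the set, Id1 and Id3 had a Pearson r of 0.90, Id1 and Id2 of 0.67, and Id2 and Id3 of 0.55. Smad6 had 0.80 with Id1, 0.77 with Id2 and 0.74 with Id3, while Bmp4 had −0.19, −0.56 and 0.07 with the 3 Id genes. Among 9861 tested genes with a mean of at least 5 CPM, those most like Id1 were Rpp25 (0.957), Prdx6 (0.955), Zfp428 (0.955), Folr1 (0.948) and Mfn2 (0.948). Most like Id3 were Porcn (0.987), Hsp90ab1 (0.983), Mcm3 (0.982), Actr1a (0.980) and Trp53 (0.977), and most like Bmp4 were Surf6 (0.925), D11Wsu47e (0.922), Klf5 (0.919), Snapc4 (0.908) and Bckdhb (0.908). The libraries share 6 lines, and these values carry no test.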

How the data were processed

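Poly(A) RNA-seq libraries were deposited as 1 table of raw counts made by the authors, whole numbers per gene and library. Per the submitters' processing notes reads were aligned with STAR 2.4.2a to mm10 (GRCm38); the counting program and its annotation are not given in the sources used. Per the labels the protocol is reverse-stranded. GENCODE M21 gave a symbol and position to 47224 of 47643 identifiers and left 419 without one. Counts were scaled with TMM (factors 0.904 to 1.08), filtered with filterByExpr by group and fitted with edgeR 4.0.16 in R 4.3.3 (quasi-likelihood, robust, 1 mean per group, 12 libraries, 6 residual degrees of freedom, common biological coefficient of variation 0.278), adjusted over 14629 genes. Totals of 5348401 to 10428509 reads limit precision for genes of few reads. CPM is on TMM-scaled totals. SE is the absolute log2 fold over the square root of F, and 95% intervals use the fit's total degrees of freedom. The fit was tested on simulated counts. The 10 genes, the lists and the markers were chosen with earlier results of these data known. Named genes are the 10, every listed pathway gene called in the pooled, KO or 41585 comparison, and the 5 genes most alike to Id1, Id3 and Bmp4 by Pearson r of log2 CPM (prior count 2). 3' UTRs are the longest of each gene in GENCODE, and promoters and miRNAs are from RefSeq. Alternatives were DESeq2 1.42.0, its size factors in edgeR, no filter, a replicate block, only the compared groups, each library left out, SOM added, and the libraries near SOM left out.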

Additional observations from a re-analysis of the deposited data

How the results depend on the processing

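With DESeq2's size factors in edgeR, the number of the 10 genes called was the same in all 10 comparisons. With no filter on low counts it was 2 instead of 1 in SOM, 41584 and 41589 against KO and 2 instead of 0 in SOM against WT, 4 instead of 3 in KO against WT and 3 instead of 2 in 41585 against 41584. With DESeq2 it was 3 in 41585 against 41584, 2 in SOM against KO, 2 in 41589 against KO and 2 in SOM against WT. With only the compared groups in the fit it was 6 instead of 3 in KO against WT, 1 instead of 2 in 41585 against 41584, 3 in SOM against KO, 0 in 41584 against KO and 2 in SOM against WT. With SOM added to the lines with miRNA processing, the pooled count was 5 (Smad5 had an adjusted p of 0.0501), and without the libraries near SOM it was 6. Differences between replicates 1 and 2 correlated between groups with r of −0.083 to 0.508 over 15 pairs of groups, over 0.1 in 5. Some groups thus deviated together by number, most of all WT and 41589 (0.508) and 41584 and 41585 (0.325). The main fit did not take the numbers as pairs. With the replicate block the count was 2 instead of 1 in SOM against KO, where Bmp4 passed (1.92, adjusted p = 0.0305), and it changed no other count. With 1 library left out, where the remaining library of that group is assumed to vary like the other groups, the counts ran from 3 to 7 in the pooled comparison (3 without replicate 1 of 41585), 0 to 1 in KO against WT, 0 to 2 in 41585 against 41584, 0 to 0 in SOM against KO, 0 to 1 in 41584 against KO and 0 to 1 in 41589 against KO. They ran from 0 to 0 in 41585 against KO, in SOM and 41584 against WT and in 41589 against 41584. The cause of these changes was not tested.

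Counts over all genes moved more. The replicate block raised the calls from 1929 to 2346 in KO against WT and from 1861 to 2170 in 41585 against 41584. With no filter, with only the compared groups, and over the fits that left out 1 library, 1929 calls in KO against WT became 2950, 4990 and 228 to 601, and 1861 in 41585 against 41584 became 3073, 472 and 359 to 1826. For SOM against KO, 889 became 1544, 2307 and 106 to 370, and for 41584 against KO, 1088 became 1858, 377 and 198 to 1322. For 41589 against KO, 1037 became 1768 with no filter and 182 to 693 with 1 library left out. The 4906 pooled calls ran from 2716 to 6144 over those fits. From 0 calls, SOM against WT gave 1345 with no filter and 2076 with only its groups, 41585 against KO gave 119 and 573, 41584 against WT gave 132 with no filter and up to 90 with 1 library left out, and 41589 against 41584 gave 3 with no filter.

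Folds that changed sign were those of genes not called with all libraries in the fit. Bmpr2 in 41585 against 41584 was −0.0248 with either use of DESeq2's factors and −0.0174 with only its groups. With 1 library left out, log2 folds in 41585 against 41584 ran from −0.10 to 0.12 for Bmpr2, −1.06 to 0.28 for Smad5 and −0.34 to 0.032 for Smad7. In 41589 against 41584 they ran from −0.047 to 0.35 for Id1, −0.25 to 1.26 for Id2, −0.12 to 1.47 for Id3, −0.78 to 1.09 for Bmp4, −0.51 to 0.19 for Bmpr1a, −0.28 to 0.30 for Bmpr2, −0.049 to 0.35 for Smad1 and −0.23 to 1.08 for Smad5. In 41584 against WT they ran from −1.09 to 0.39 for Id2, −0.34 to 0.91 for Bmp4 and −0.25 to 0.0068 for Bmpr1a. Against KO they ran from −1.03 to 0.41 for Id1, −0.11 to 0.71 for Id3 and −0.22 to 0.20 for Bmpr1a in SOM, from −1.14 to 0.45 for Id3 and −0.28 to 0.42 for Bmpr1a in 41589, from −0.53 to 0.79 for Smad5 in 41584, and from −0.12 to 0.21 for Smad1 and −0.038 to 0.32 for Smad7 in 41585. The fold of Smad7 in KO against WT ran from −0.19 to 0.017 and that of Smad1 in SOM against WT from −0.49 to 0.032.

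With 2 libraries a group, single comparisons rest on each library, and Smad6, Rgma and Msx2 rest on few reads.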
